A study of Homo sapiens with 10 samples.

Results

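Metallothioneins are described here through 8 genes, MT2A, MT1A, MT1E, MT1F, MT1G, MT1H, MT1M and MT1X, out of 57110 gene identifiers in the deposited annotation. Members were taken by name: every transcript whose gene name, or any part of a joined gene name, was in this list. They have 18 annotated transcripts among the 99493 transcripts of each library, of which 15 held an estimate above 0 somewhere and 3 were at 0 in every library. The libraries are nanopore long-read RNA sequencing of 7 established human ovarian cancer cell lines in 10 libraries, made to benchmark transcript quantification. COV362, COV504, OVKATE, OVMANA, OVTOKO and SK-OV-3 have 1 library each on the PromethION, a high-output nanopore instrument. IGROV-1 has 2 PromethION libraries and 2 libraries on the MinION, its small counterpart. The labels name no treatment, time or genotype for any group, no passage or culture condition, and do not say whether the IGROV-1 replicates were separate cultures, so p-values measure the spread between these libraries, which may be technical.

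Metallothioneins are very small proteins in which cysteine makes up a large part of the chain and holds zinc and copper ions, and also toxic metals such as cadmium, in clusters. Their genes sit side by side on the long arm of chromosome 16 and are switched on by free zinc through the transcription factor MTF1, which binds short metal response elements in their promoters, and by glucocorticoids. MT2A is the most broadly expressed member in human tissues, and the MT1 genes are more variable between cell types.

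All 8 genes lie within 75.998 kb of chromosome 16 on GRCh38, from position 56608199 (the annotated start of MT2A) to 56684196 (the end of MT1X). MT1G is the 1 member on the minus strand, and its start lies 1749 bp from that of MT1H, which is read the other way. In order along the chromosome the main transcripts are MT2A at chr16:56608199-56609497, MT1E at chr16:56625475-56627112, MT1M at chr16:56632233-56633986, MT1A at chr16:56638666-56640087, MT1F at chr16:56657694-56659303, MT1G at chr16:56666735-56668065, MT1H at chr16:56669814-56671129 and MT1X at chr16:56682424-56684196. Each main transcript is protein coding and has 3 exons, with a middle exon of 66 nt in 7 genes and of 69 nt in MT1G. Their annotated lengths run from 396 nt (MT1A) to 829 nt (MT1M).

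The coding sequences show how alike the members are, which bears on how surely a long read can be placed on a single gene. Each holds 61 codons (62 in the main MT1G form), of which 20 encode cysteine in every member. The coding sequences of MT2A and of 3 MT1 genes with contrasting patterns across the lines are given from GENCODE 29 without the stop codon, with the bases that differ from MT2A in capitals.
MT2A: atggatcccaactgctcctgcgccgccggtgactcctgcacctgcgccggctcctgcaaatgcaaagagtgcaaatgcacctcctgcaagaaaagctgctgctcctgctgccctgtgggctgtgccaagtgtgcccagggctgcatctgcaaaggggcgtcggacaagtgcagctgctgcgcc
MT1E: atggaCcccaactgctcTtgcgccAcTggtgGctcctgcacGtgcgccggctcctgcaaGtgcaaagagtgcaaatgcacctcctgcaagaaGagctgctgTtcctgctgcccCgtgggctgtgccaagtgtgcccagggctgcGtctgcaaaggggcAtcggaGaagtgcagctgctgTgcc
MT1F: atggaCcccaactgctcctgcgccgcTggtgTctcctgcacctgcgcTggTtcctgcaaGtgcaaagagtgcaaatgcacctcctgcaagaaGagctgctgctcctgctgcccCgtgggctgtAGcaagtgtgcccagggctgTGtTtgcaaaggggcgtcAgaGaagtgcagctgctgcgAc
MT1M: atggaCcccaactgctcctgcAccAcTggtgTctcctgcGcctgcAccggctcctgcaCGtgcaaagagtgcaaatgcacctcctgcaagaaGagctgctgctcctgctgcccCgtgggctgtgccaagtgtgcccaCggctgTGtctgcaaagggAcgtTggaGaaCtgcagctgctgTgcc
MT1E differed from MT2A at 14 of 183 coding bases, MT1F at 16 and MT1M at 19. Over all 28 pairs of members the coding sequences were 88.5% to 94.5% identical. The last exon includes the 3′ untranslated region and is covered by a read from the poly(A) end. It was 75.7% to 90.3% identical between members (median 79.9%), with MT1E and MT1M the closest pair. How the authors' counting shared reads that fit several members is not stated, so small counts of a member beside a large count of its closest relative are uncertain.

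The promoter table from RefSeq (GRCh38.p14) held 3 of the 8 members, MT2A, MT1H and MT1X. The core of the metal response element was searched as TGCACNC or TGCGCNC on both strands within the 250 bases before the RefSeq start. MT2A held 7 such cores, MT1H held 8 and MT1X held 4, with no overlaps between them. Among all 35116 promoters listed, 24.8% held at least 1 core, 0.370% at least 4, 0.0313% at least 7 and 0.0171% at least 8. The windows of MT1H and MT1X are shown because these genes stand at opposite ends of the range across lines below, MT1H counted in a single line and MT1X in all of them; capitals mark the cores (a core on the minus strand reads as its reverse complement).
MT1H, chr16:56669564-56669813, plus strand: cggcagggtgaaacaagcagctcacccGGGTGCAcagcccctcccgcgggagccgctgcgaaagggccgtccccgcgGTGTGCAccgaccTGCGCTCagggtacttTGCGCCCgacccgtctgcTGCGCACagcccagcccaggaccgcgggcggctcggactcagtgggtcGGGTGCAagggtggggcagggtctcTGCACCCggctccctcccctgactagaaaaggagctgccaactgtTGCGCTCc
MT1X, chr16:56682220-56682423, plus strand: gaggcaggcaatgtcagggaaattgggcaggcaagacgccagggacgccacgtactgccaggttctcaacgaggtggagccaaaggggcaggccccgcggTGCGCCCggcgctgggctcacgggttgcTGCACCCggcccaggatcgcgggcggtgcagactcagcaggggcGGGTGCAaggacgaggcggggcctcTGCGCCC
A match describes the letters only and shows no binding. The MT1X window is printed up to the GENCODE 29 start of its transcript, 204 of the 250 bases, which include all 4 cores. The MT2A window overlaps its annotated transcript in GENCODE 29 and is not printed.

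Library totals lay between 1729782 and 3666224 estimated counts, with the MinION libraries the deepest. Levels are CPM, the counts of a gene scaled to a fixed library total, and a gene at 0 may still have had up to 3 counts, which is 1.18 to 1.73 CPM in each of the other lines, 0.643 CPM over both IGROV-1 PromethION libraries and 0.259 CPM over all 4 IGROV-1 libraries together (11571972 counts). The 2 mitochondrial ribosomal RNAs took 9.13% and 10.9% of the counts in the IGROV-1 PromethION libraries against 1.01% to 3.31% in the other 8. Epithelial markers summed to 475 CPM (OVTOKO) to 9692 CPM (COV504) in the 6 other lines. In IGROV-1 they summed to 411 and 404 CPM in the replicate 1 libraries of the PromethION and MinION and to 1224 and 1270 CPM in the replicate 2 libraries, with KRT7 and CDH1 at 0, EPCAM at 1.54 CPM or less, CLDN4 at 1.28 CPM or less and KRT8 at 5.15 to 11.4 CPM. The keratins KRT18 (244 to 1079.5 CPM) and KRT19 (140.1 to 177 CPM) made up nearly all of the IGROV-1 sums, and KRT19 was at 0.578 CPM in OVTOKO. IGROV-1 thus lacked some epithelial markers and held others. Markers of other cell types (11 genes) summed to 2.14 CPM in OVMANA, 2.31 in OVTOKO, 16.1 in COV362, 45.0 in OVKATE, 116 in COV504, 317 in SK-OV-3 and 7.64 to 30.6 in the IGROV-1 libraries, with CD3E at 0 everywhere and PTPRC at 0.445 CPM or less. In the edgeR test below, COL1A1, COL3A1, LUM and PECAM1 were higher than in IGROV-1 in SK-OV-3, and COL1A1, COL3A1 and CDH5 in COV504. LYZ was higher in OVKATE and PECAM1 in COV362. The part of these differences in the results below was not tested. As these are bulk libraries, fewer cells with a transcript and less transcript per cell cannot be told apart.

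The summed level of the 8 genes spanned a wide range. It was 2514 CPM in OVMANA, 2180 in COV504, 2158 in OVTOKO, 1177 in SK-OV-3, 1102 in COV362 and 468 in OVKATE. In IGROV-1 it was 113.9 ± 2.6 CPM (SD, n = 2) on the PromethION and 81.8 ± 2.3 CPM (SD, n = 2) on the MinION. IGROV-1 was therefore the lowest line on either instrument, and OVKATE, the next lowest, was 4.11-fold above its PromethION mean, while OVMANA was 22.1-fold above it. These sums have no replicate outside IGROV-1, and the closest of them, COV504 and OVTOKO, have overlapping 95% Poisson intervals (2119 to 2242 CPM and 2089 to 2228 CPM) that cover counting error only.

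The number of members above 3 counts also differed between lines. OVMANA had all 8, COV362 and COV504 had 6, OVKATE and OVTOKO had 4, and SK-OV-3 and each IGROV-1 library had 3. MT2A, MT1F and MT1X passed 3 counts in all 10 libraries, MT1E in 5, MT1A and MT1M in 3, and MT1G and MT1H in OVMANA alone.

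**Figure D1:**
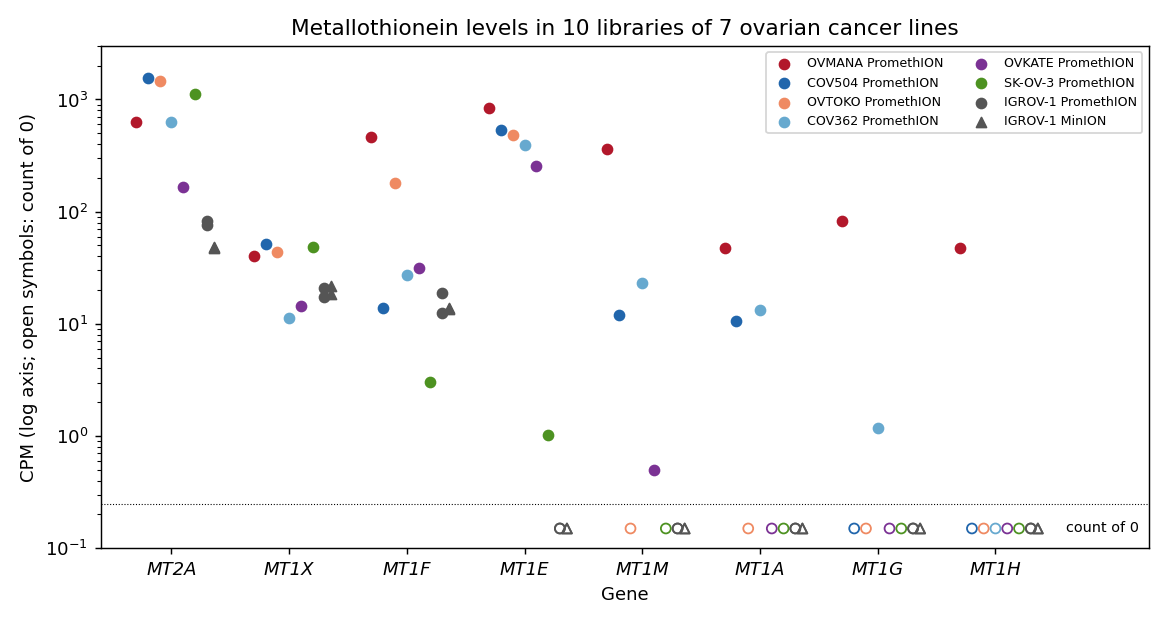
Level of each metallothionein gene (x axis) in CPM on a log axis (y axis), 1 symbol per library, circles for PromethION and triangles for MinION; open symbols under the dotted line are counts of 0. MT2A, MT1X and MT1F have a count in all 10 libraries, while MT1H has a count in OVMANA only.

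Each of the 6 lines was compared with the IGROV-1 PromethION libraries by edgeR's quasi-likelihood test over 13030 genes, with Benjamini-Hochberg adjustment and calls at an adjusted p under 0.05. The 6 comparisons share these IGROV-1 libraries, and the spread between IGROV-1 replicates stands in for that of the single libraries. All 8 members passed the test's expression filter, 5 of them only through lines other than IGROV-1, so a count of calls over the members is a description. In OVMANA 8 of 8 members were higher, against 18.9% of all genes called higher. In COV362 and in COV504 5 members were higher, against backgrounds of 23.7% and 24.0%. In OVTOKO 4 members were higher (18.2% of all genes), and in OVKATE 2 were higher (26.8%), a share of the members close to the background. In SK-OV-3 2 members were higher (22.0%), likewise close to it, and 1, MT1F, was lower (19.8%). No member was called lower in the other 5 lines, where 16.5% (OVMANA), 22.4% (OVKATE), 15.9% (OVTOKO), 18.8% (COV362) and 19.6% (COV504) of all genes were. Members at 0 counts in both a line and IGROV-1 could not be called, though the shares include them. They were MT1A, MT1G and MT1H in OVKATE, and the same genes with MT1M in OVTOKO and SK-OV-3. In COV362 this held for MT1H, and in COV504 for MT1G and MT1H. The test calls 32123 gene differences over the 6 comparisons together, and DESeq2 on the same genes calls 9836. For the members these counts were 27 and 22.

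MT2A, the broadly expressed member, was the most abundant of the 8 by count in every library except those of OVMANA and OVKATE. Its level was 1561 CPM in COV504, 1454 in OVTOKO, 1125 in SK-OV-3, 634 in COV362, 632 in OVMANA and 165 in OVKATE. In IGROV-1 it was 76.0 and 82.5 CPM on the PromethION and 48.3 and 47.9 CPM on the MinION. All 6 other lines lay above all 4 IGROV-1 libraries, with COV504 and OVTOKO highest and OVKATE nearest to IGROV-1. Relative to the IGROV-1 PromethION mean MT2A was 19.7-fold higher in COV504, 18.3-fold in OVTOKO, 14.2-fold in SK-OV-3, 8.0-fold in COV362, 7.97-fold in OVMANA and 2.08-fold in OVKATE. Folds are ratios of CPM, whereas the tested log2 changes are on libraries scaled by TMM. This scaling sets OVKATE and SK-OV-3 lower against IGROV-1 than CPM does. It brings MT2A in OVKATE closer to IGROV-1. MT1X in OVKATE, 0.753-fold by CPM, it moves further below IGROV-1 (tested log2 change -0.71). The tested log2 change was largest in OVTOKO (4.27, SE 0.16, adjusted p = 1.9e-06) and smallest in OVKATE (0.75, SE 0.16, adjusted p = 0.0056). Over the alternatives the adjusted p for OVKATE ran from 8.2e-06 to 0.034 and its log2 change from 0.69 to 0.83.

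Ordered by level, several neighbours did not differ beyond their error for MT2A. Over the 15 pairs of the 6 other lines 24.9% to 40.4% of all genes were called in either direction. COV504 and OVTOKO gave an adjusted p of 0.86, and COV362 and OVMANA 0.98. The steps from OVTOKO to SK-OV-3 (adjusted p = 0.023), from SK-OV-3 to COV362 (0.039), from OVMANA to OVKATE (7.6e-05) and from OVKATE to IGROV-1 (0.0056) passed the threshold. MT2A reads fell almost wholly on the 3-exon transcript ENST00000245185, which held at least 99.4% of the gene's count in each library.

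MT1X was the member that varied least. It was at 51.6 CPM in COV504, 48.1 in SK-OV-3, 43.4 in OVTOKO, 40.6 in OVMANA, 14.3 in OVKATE and 11.4 in COV362. In IGROV-1 it was at 20.9 and 17.2 CPM on the PromethION and at 18.3 and 21.6 CPM on the MinION. A group of 4 lines stood above IGROV-1 and 2 lines, OVKATE and COV362, below it, with no overlap of single values. The 4 higher lines were 2.13- to 2.71-fold above the PromethION mean and were called, with log2 changes of 1.15 in OVMANA (adjusted p = 0.0065), 1.26 in OVTOKO (0.0045), 1.11 in SK-OV-3 (0.0055) and 1.36 in COV504 (0.0017). With DESeq2 all 4 calls were lost, at adjusted p of 0.36, 0.30, 0.35 and 0.21. OVKATE (log2 change -0.71, adjusted p = 0.071) and COV362 (-0.70, adjusted p = 0.081) did not pass. The deposited annotation joins MT1X with the overlapping gene AC026461.1 under a single identifier, and all counts of that identifier were on the MT1X transcript ENST00000394485.

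MT1F differed in both directions. It was at 463 CPM in OVMANA, 182 in OVTOKO, 31.7 in OVKATE, 27.0 in COV362, 13.8 in COV504 and 3.04 in SK-OV-3 (6 counts). In IGROV-1 it was at 18.8 and 12.5 CPM on the PromethION and at 13.6 and 13.9 CPM on the MinION. OVMANA and OVTOKO stood far above the rest, COV504 lay within the IGROV-1 values and SK-OV-3 below all other libraries. MT1F rose 29.6-fold in OVMANA (log2 change 4.94, SE 0.21, adjusted p = 2.2e-06) and 11.6-fold in OVTOKO (3.61, SE 0.22, adjusted p = 1.1e-05). In SK-OV-3 it fell by 2.57 on the log2 scale (SE 0.45, adjusted p = 0.0025), and over the alternatives this adjusted p ran up to 0.038. COV362 was called at a log2 change of 0.83 (adjusted p = 0.036), a call lost with DESeq2 (0.34), without a filter on low counts (0.072), with PromethION libraries only (0.081), without IGROV-1 PromethION replicate 2 (0.18) and without either MinION replicate (0.11 and 0.089). OVKATE missed the threshold (0.71, adjusted p = 0.057) and passed it without IGROV-1 PromethION replicate 1 (0.013) and with median-of-ratios scaling (0.039).

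**Figure D2:**
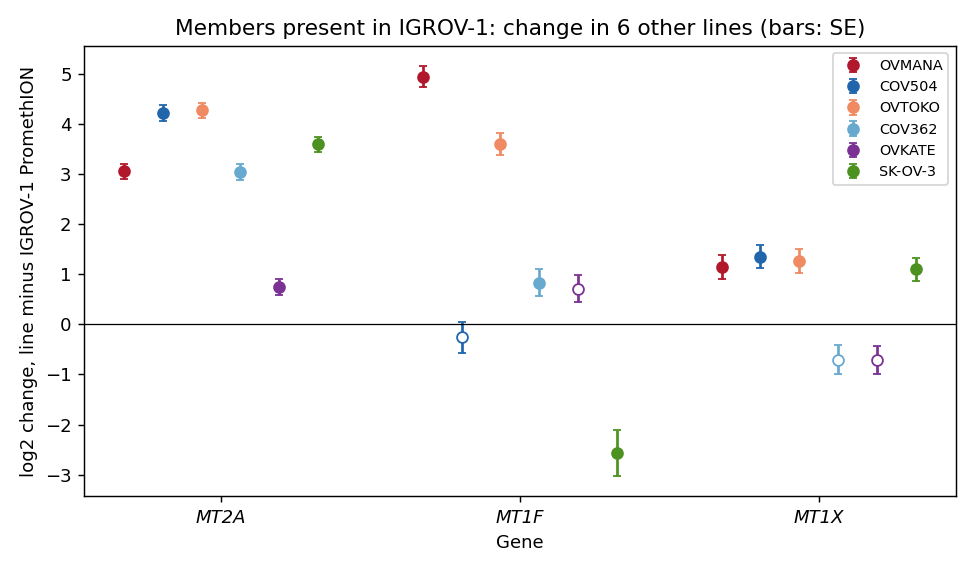
log2 change of the 3 members present in IGROV-1 (x axis) in each of 6 lines against IGROV-1 PromethION (y axis). Bars are the standard error derived from the test's F statistic. Filled symbols passed an adjusted p under 0.05 and open symbols did not. MT2A lies above 0 in all 6 lines, and MT1F ranges from 4.94 in OVMANA to -2.57 in SK-OV-3.

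The other 5 members were at 0 counts in all 4 IGROV-1 libraries. MT1E was the most abundant of them. It reached 842 CPM in OVMANA, 531 in COV504, 479 in OVTOKO, 392 in COV362 and 257 in OVKATE, with 2 counts (1.01 CPM) in SK-OV-3. The 5 lines with MT1E were well separated from SK-OV-3 and IGROV-1. Against the floor of IGROV-1 PromethION, 3 counts over both libraries, MT1E was at least 1309.8-fold higher in OVMANA, 826-fold in COV504, 746-fold in OVTOKO, 610.4-fold in COV362 and 399.5-fold in OVKATE. Against SK-OV-3 it was 253-fold higher in OVKATE (95% counting interval 69.8 to 2098) and 831-fold higher in OVMANA (229.6 to 6866). SK-OV-3 and IGROV-1 were both at or under the floor (adjusted p = 0.076). OVMANA was above COV504 (adjusted p = 0.020) and COV362 above OVKATE (0.012), while neither COV504 and OVTOKO (1.0) nor OVTOKO and COV362 (0.23) differed past the threshold. SK-OV-3 thus combined 1 of the 3 highest MT2A levels with almost no MT1E.

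MT1M and MT1A were counted in the same 3 lines. MT1M was at 360 CPM in OVMANA (674 counts), 23.1 in COV362 and 12.01 in COV504, with 1 count in OVKATE and 0 in OVTOKO and SK-OV-3. MT1A was at 47.6 CPM in OVMANA (89 counts), 13.3 in COV362 and 10.7 in COV504, and at 0 in OVKATE, OVTOKO and SK-OV-3. OVMANA was highest for both genes, above COV362 at an adjusted p of 0.00013 for MT1M and 0.011 for MT1A. COV362 and COV504 did not differ past the threshold for MT1A (adjusted p = 0.51) or MT1M (0.061). The floor of IGROV-1 made MT1M at least 561-fold higher in OVMANA, 36.0-fold in COV362 and 18.7-fold in COV504, and MT1A at least 74.0-, 20.7- and 16.6-fold higher.

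MT1G and MT1H, neighbours that are read in opposite directions, were counted above the floor in OVMANA alone. MT1G was at 82.8 CPM there (155 counts), with 3 counts in COV362 and 0 in the other 8 libraries. MT1H was at 47.0 CPM in OVMANA (88 counts) and 0 in the other 9 libraries. Against the IGROV-1 PromethION floor they were at least 129- and 73.2-fold higher. The last exons of MT1G and MT1H are 89.0% identical, which leaves the split of reads between them uncertain. Each of these genes rests on a single library of OVMANA, so the line and the library cannot be told apart.

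MT1G was the member with another form of note. In OVMANA 72.0% of its count (Wilson interval 64.7% to 78.7%) was on ENST00000379811 and 26.4% (20.1% to 33.9%) on ENST00000444837, whose coding sequences differ by 3 bases where exon 1 meets exon 2. The start of both coding sequences is shown to mark this codon, with the extra bases in capitals from coding position 28.
ENST00000379811: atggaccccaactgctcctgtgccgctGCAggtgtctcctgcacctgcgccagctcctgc
ENST00000444837: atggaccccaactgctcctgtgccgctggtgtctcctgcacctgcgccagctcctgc
Estimates over such close forms depend on how reads were assigned, which is not stated. The other members were carried by their 3-exon transcript. It held 97.2% to 99.0% of MT1E in the 5 lines with 20 counts or more and 95.6% or more of MT1F.

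The lines also differed in which members made up the family. MT2A held 95.6% of the summed count in SK-OV-3 (95% Wilson interval 94.7% to 96.3%), 71.6% in COV504, 67.4% in OVTOKO, 57.5% in COV362, 35.2% in OVKATE and 25.1% in OVMANA. MT1E held 54.9% in OVKATE (51.7% to 58.0%), 35.6% in COV362, 33.5% in OVMANA, 24.4% in COV504, 22.2% in OVTOKO and 0.0861% in SK-OV-3. MT1E thus exceeded MT2A in OVKATE and OVMANA only. In OVMANA MT1F (18.4%) and MT1M (14.3%) also took sizeable shares, whereas in IGROV-1 all that was not MT2A was MT1X (15.3% to 25.9%) and MT1F (11.1% to 17.0%). Divided by transcript length the MT2A share was 92.7% in SK-OV-3, 68.1% in COV504, 64.0% in OVTOKO, 54.1% in COV362, 32.1% in OVKATE and 22.1% in OVMANA. The same order held on both scales.

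**Figure D3:**
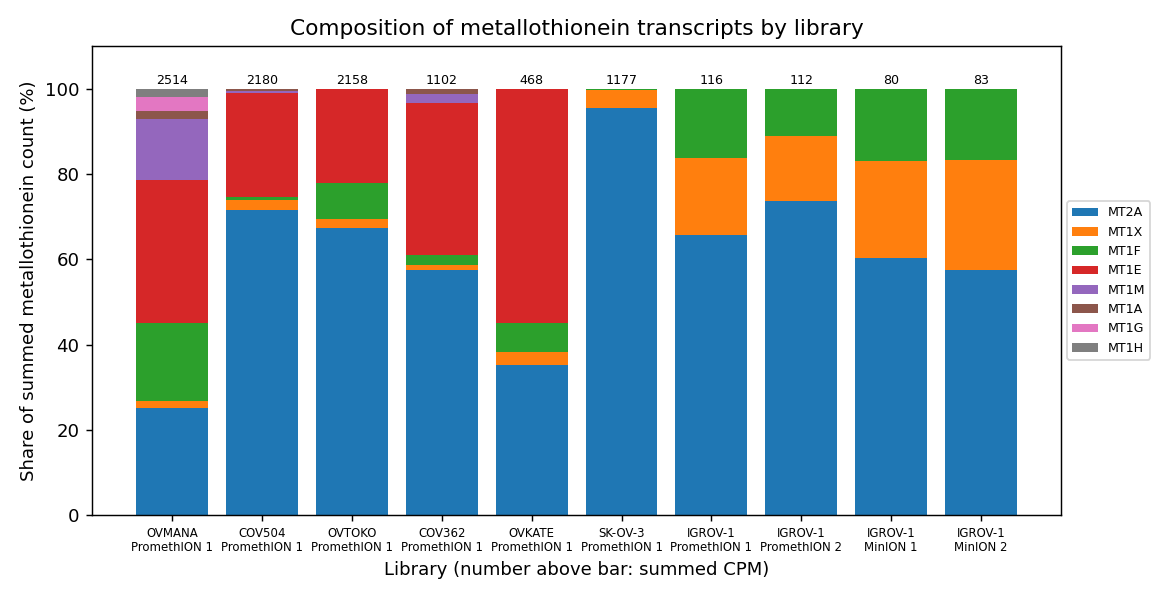
Share of the summed metallothionein count (y axis, percent) taken by each gene in each of the 10 libraries (x axis), with the summed level in CPM above each bar. MT2A takes 95.6% in SK-OV-3, MT1E takes 54.9% in OVKATE, and OVMANA holds all 8 genes.

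Placed along the chromosome, members counted in the same lines were not always neighbours. MT1M and MT1A are adjacent and share their 3 lines, but MT1E beside MT1M was counted in 5 lines, and MT2A and MT1X, at the ends of the cluster, and MT1F, inside it, were counted in all. MT1L, an MT1 pseudogene transcript between MT2A and MT1E, was the only other metallothionein gene of 11 in the annotation that was tested. It was at 287 CPM in OVTOKO, 190.2 in OVMANA, 48.5 in COV504 and 16.1 in COV362, and at 0 in OVKATE, SK-OV-3 and IGROV-1. It was called higher than IGROV-1 in these 4 lines, with adjusted p of 0.00041 or less in edgeR's test. MT1L passed the expression filter only through lines where it was counted, so these calls are a description. OVKATE had 519 counts of MT1E and none of MT1L, and the last exons of the 2 genes are 88.9% identical. MT3, MT1B and MT1DP had at most 5 counts in a library, and the other 7 were at 0.

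**Figure D4:**
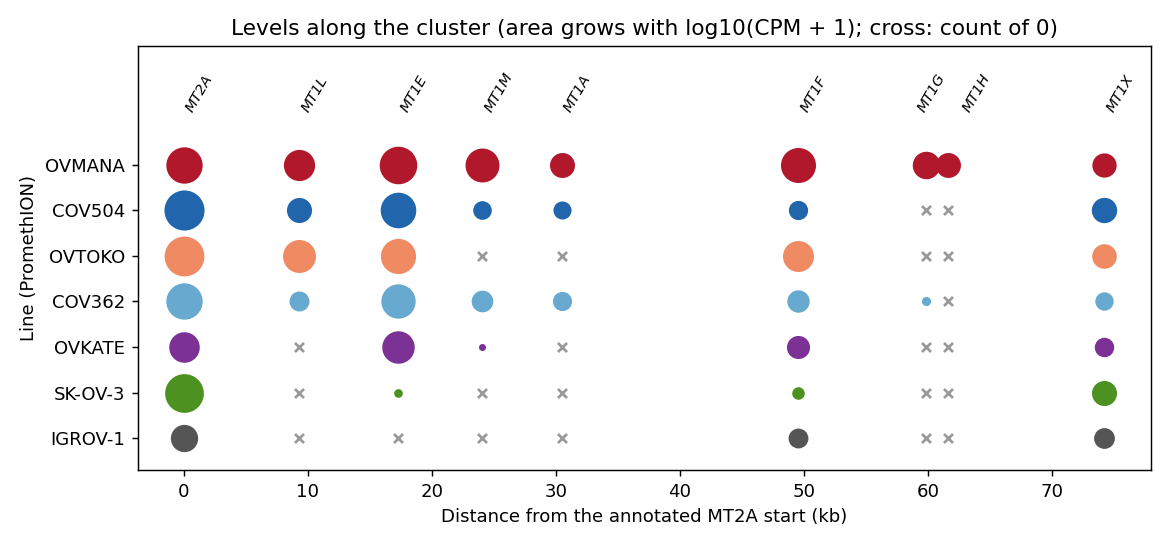
Level of the 8 members and of MT1L in each line (y axis, PromethION, IGROV-1 as the mean of 2) by distance from the annotated MT2A start in kb (x axis); the area of a circle grows with log10(CPM + 1) and a cross is a count of 0. OVMANA has a circle at every gene, and SK-OV-3 and IGROV-1 are large at MT2A and empty or small between MT2A and MT1F.

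Within IGROV-1 the MinION libraries were compared with the PromethION libraries. The labels do not say whether both sets came from the same culture or RNA. An effect of the instrument therefore cannot be told apart from one of the material or its preparation. Only MT2A, MT1F and MT1X could be tested, and edgeR called 0 of the 3 against 0.817% of all 10041 genes tested; DESeq2 also called 0, and each tool found 1 at an unadjusted p under 0.05. That gene was MT2A, at 48.3 and 47.9 CPM on the MinION and 76.0 and 82.5 CPM on the PromethION, with no overlap. Its log2 change was -0.76 (SE 0.14, adjusted p = 0.053). Among the fits without a replicate block it passed the threshold without IGROV-1 PromethION replicate 1 (adjusted p = 0.024) and without the mitochondrial ribosomal RNAs (0.048). At the level of transcripts MT2A's main form was lower on the MinION at a log2 change of -0.77 (SE 0.15, adjusted p = 0.039), 1 of 3 member transcripts tested against 2.29% of all transcripts, and this call was lost with DESeq2, without a filter, without IGROV-1 PromethION replicate 2 and without either MinION replicate. MT1F (log2 change -0.22, adjusted p = 0.71) and MT1X (0.02, adjusted p = 0.97) had overlapping values on both instruments. On the log2 scale the MT2A gap between instruments was as large as the gap between OVKATE and IGROV-1 (0.75) and smaller than that of the other 5 lines. Within IGROV-1 the mitochondrial ribosomal RNA share was 9.13% and 10.9% on the PromethION and 1.15% and 1.01% on the MinION. The PromethION libraries of the other lines, 1 per line, held 1.58% to 3.31%. The MT2A log2 change was -0.76 with the mitochondrial ribosomal RNAs left out, and the part of their share in the gap was not tested.

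The genes that sense, move and store metals were read from lists of known pathway members, and a gene of a list is named where it was called with a log2 change of at least 1 in either direction in 4 or more of the 6 lines. Of 25 genes for zinc transport and metal sensing, 19 were tested. In edgeR's test the number higher and lower than IGROV-1 was 2 and 5 in COV504, 5 and 4 in COV362, 6 and 3 in OVKATE, 5 and 3 in OVMANA, 6 and 2 in SK-OV-3 and 3 and 2 in OVTOKO. In the same comparisons 18.2% (OVTOKO) to 26.8% (OVKATE) of all genes were called higher and 15.9% (OVTOKO) to 22.4% (OVKATE) lower. The list's median log2 change lay between -0.0027 and 0.34 over the 6 lines, beside -0.01 to 0.04 for all genes. MTF1, the zinc sensor that drives metallothionein genes, was at 24.6 CPM in OVMANA and 10.6 to 17.8 CPM in the other 5 lines, at 14.5 and 13.7 CPM in IGROV-1 on the PromethION and at 7.36 and 13.6 CPM on the MinION. It was called in none of the 6 comparisons, with adjusted p of 0.093 or more in edgeR's test. Over the alternatives the adjusted p of MTF1 in OVMANA ran from 0.0037, past the threshold, to 0.74. Its log2 change there ran from 0.82 to 1.05. SLC30A1, a zinc exporter that MTF1 also drives, was at 96.2 CPM in SK-OV-3, 37.4 in OVMANA and 11.6 to 19.6 CPM in the remaining lines, against 10.7 and 11.6 CPM in IGROV-1 on the PromethION. It was higher in SK-OV-3 by 2.88 (adjusted p = 3.2e-05) and in OVMANA by 1.80 (adjusted p = 0.00083) on the log2 scale, and DESeq2 did not call the latter (0.12). COV362 was called at a log2 change of 0.85 (adjusted p = 0.031), a call lost with DESeq2 (0.61) and when any IGROV-1 library was left out (0.056 to 0.11). Both genes are named for their role, outside that rule. SLC39A11, of the zinc importer family, met the rule with changes in both directions, from 41.5 CPM in OVKATE to 3.92 CPM in COV362 against 15.4 and 15.9 CPM in IGROV-1.

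Of 8 copper genes 7 were tested. The number higher and lower was 2 and 1 in COV504, 2 and 0 in COV362, 5 and 0 in OVKATE, 1 and 2 in OVMANA, 3 and 1 in SK-OV-3 and 2 and 0 in OVTOKO. Of all genes, 18.2% to 26.8% were called higher and 15.9% to 22.4% lower in these lines. The list's median log2 change lay between -0.0032 and 1.30. COX17, a copper chaperone of mitochondria, was at 310.6 CPM in OVKATE, 204 in OVMANA, 167 in COV504, 139.9 in COV362, 132 in SK-OV-3 and 76.9 in OVTOKO, against 43.6 and 57.6 CPM in IGROV-1 on the PromethION. It was called higher in 5 lines and not in OVTOKO (adjusted p = 0.054), which passed without IGROV-1 PromethION replicate 2 (0.0072).

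Of 8 genes of the glucocorticoid response 7 were tested, and 1 to 3 were higher and 1 to 3 lower in each line. The shares of all genes were 18.2% to 26.8% higher and 15.9% to 22.4% lower. The list median lay between -1.30 and 0.82. TSC22D3, a glucocorticoid-induced gene also called GILZ, was at 131 CPM in SK-OV-3, 104 in COV504, 46.2 in COV362, 42.8 in OVTOKO, 9.40 in OVKATE and 6.41 in OVMANA, against 18.8 and 18.9 CPM in IGROV-1. It was called higher in the first 4 of these and lower in OVKATE and OVMANA, while DESeq2 kept only the calls in SK-OV-3 and COV504. The glucocorticoid receptor NR3C1 was called higher in OVKATE, SK-OV-3, COV362 and COV504 (33.4 to 41.5 CPM against 10.7 and 12.5), and KLF9, another target, was called lower in all 6 lines. Of these NR3C1 and KLF9 calls DESeq2 kept that of KLF9 in OVTOKO only, and the KLF9 call in COV504 was also lost when any IGROV-1 library was left out (adjusted p of 0.059 to 0.081), as was that in COV362 without IGROV-1 PromethION replicate 2 or either MinION replicate (0.052 to 0.060).

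Of 10 genes that flank the cluster 8 were tested. The number higher and lower was 3 and 2 in COV504, 0 and 6 in COV362, 2 and 2 in OVKATE, 0 and 3 in OVMANA, 2 and 2 in SK-OV-3 and 1 and 0 in OVTOKO. Members above 3 counts numbered 8 in OVMANA, 6 in COV362 and COV504, 4 in OVKATE and OVTOKO and 3 in SK-OV-3. Of all genes, 18.9% were called higher and 16.5% lower in OVMANA, 23.7% and 18.8% in COV362, and 24.0% and 19.6% in COV504. These shares were 26.8% and 22.4% in OVKATE, 22.0% and 19.8% in SK-OV-3, and 18.2% and 15.9% in OVTOKO. DESeq2 called 2 flanking differences over the 6 lines, against 23 in edgeR's test. Any link between the flanking genes and the members was not tested. The median log2 change of the flanking genes was -0.72 in OVMANA and -1.01 in COV362, and between -0.26 and 0.36 (COV504) in the other 4 lines. SLC12A3 met the rule, on 9 and 6 counts in IGROV-1 PromethION and 0 in the 6 other lines. None of the genes in these 4 lists was called between the instruments.

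The genes most like each member over the 7 lines were found by Pearson's r of log2(CPM + 1) among the 8813 genes that averaged 10 CPM or more, for the 6 members with at least 10 CPM in 3 lines or more. These correlations rest on 7 lines that differ in many genes and share an instrument, and are a description. MT2A was closest to IFITM3 (r = 0.97), CAVIN1 (0.96) and GNG11 (0.96). IFITM3, an interferon-induced membrane protein, was at 2758 CPM in COV504 and 284 in OVKATE. MT1M and MT1A were close to each other (r = 0.98) and both to EFHD2 (0.96 and 0.98), a calcium-binding protein gene at 377 CPM in OVMANA and 48.1 to 181 CPM elsewhere. MT1E was closest to SPON1 (0.98), PPP1R14A (0.97) and COX19 (0.97), MT1F to MRPL33 (0.95), TMEM159 (0.95) and BIRC6 (0.93), and MT1X to IBTK (0.97), PLCG1 (0.97) and LIG3 (0.96). Apart from MT1A and MT1M, no member was among the 3 genes most like another. For the other pairs of members r ran from 0.03 (MT1E and MT1X) to 0.87 (MT1M and MT1G). It was 0.09 between MT2A and MT1F, 0.45 between MT2A and MT1E and 0.68 between MT2A and MT1X. MT1H averaged under 10 CPM and was not among the genes compared.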

How the data were processed

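For each library the authors deposited estimated counts of the transcripts, some of them fractional, and TPM values. Per the submitters' processing notes the reads were aligned with minimap2 2.24-r1122 to GRCh38. The sources used here do not give the counting settings, strand use or annotation release. The deposited TPM equalled CPM (a count scaled by the library total) with differences of at most 5.6e-11 and is therefore not a value per length. Estimates were summed per gene identifier and rounded. Transcript positions matched GENCODE 29 for all 18 member transcripts.

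Genes were tested with edgeR 4.0.16 (R 4.3.3), with quasi-likelihood tests (two-sided), TMM scaling, filterByExpr by group, Benjamini-Hochberg adjustment and calls under 0.05. The SE of a log2 change is its absolute value divided by the square root of the test's F statistic. The instrument fit used the 4 IGROV-1 libraries. The line fit used all 10 libraries with 2 residual degrees of freedom, all from IGROV-1. The scripts were tested on simulated data. IGROV-1 replicates differed by more than counting noise (chi-square per degree of freedom 4.36 and 6.73). Alternatives were DESeq2 1.42.0, median-of-ratios scaling, no filter, removal of mitochondrial ribosomal RNA, other sample sets, a replicate block and leaving out each IGROV-1 library. Intervals (95%) and the floor of 3 counts cover counting error only. The members, the gene lists and the naming rule (stated with the lists) were chosen with earlier results of these data known. Protein sequences were not used here. A gene that met the naming rule is not reported here.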

Additional observations from a re-analysis of the deposited data

How the results depend on the processing

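Over the 6 line comparisons the number of members called stayed within 1.5 times its value under every alternative run, from 22 (DESeq2) to 29 (replicate block) against 27. Between instruments the count of 0 member genes became 1 (MT2A) with mitochondrial ribosomal RNA removed and with the replicate block, and ran from 0 to 1 when a library was left out. The count of 1 member transcript became 0 with DESeq2 and without a filter, and ran from 0 to 1 when a library was left out. Of 370 alternative values of single members, 349 kept direction and side of the threshold, 10 lost it, 7 gained it and 4 changed sign, all 4 between values near 0. With a library left out the log2 change between instruments ran from -0.49 to 0.10 for MT1F (the latter without IGROV-1 PromethION replicate 1) and from -0.12 to 0.17 for MT1X (below 0 without PromethION replicate 2 or MinION replicate 2), and that of MT1F in COV504 from -0.52 to 0.064 (the latter without PromethION replicate 1), none past the threshold. The cause was not tested.

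DESeq2 called far fewer genes in all, and fewer genes of each list: 9 against 46 for zinc and metal sensing, 12 against 19 for copper, 5 against 23 for the glucocorticoid genes and 2 against 23 for the flanking genes, summed over 6 lines. Without MinION replicate 1 the zinc list fell to 30, and without MinION replicate 2 to 32. Removing mitochondrial ribosomal RNA left summed metallothionein levels within their counting intervals except in COV504 (2254 CPM). The share removed was larger in the IGROV-1 PromethION libraries (9.13% and 10.9%) than in COV504 (3.31%). Their fewer member counts (271 and 261, against 4899) give wider intervals, so this check does not rank the shifts. Median-of-ratios scaling moved the median of all genes by at most 0.07. The labels do not say whether the IGROV-1 replicate numbers mark shared material; over these 2 pairs same-numbered libraries deviated together (r = 0.37 over 10041 genes). With the replicate block the genes called between instruments went from 82 to 1979, MT2A passed (adjusted p = 6.7e-09), and MT1X was called lower in OVKATE (0.041) and COV362 (0.048). Member counts under about 10 are limited by depth.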
